A study of Mus musculus with 8 samples.

Results

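Arg1 encodes arginase 1, and it was followed here through every deposited measurement of 1 single-cell experiment on the 4T1 mouse mammary tumour. The gene was found by its symbol in the authors' table of annotated cells and by its Ensembl identifier, ENSMUSG00000019987, in the 8 library tables; it is 1 of 17580 gene identifiers there. It was chosen by measured values of these data, its UMI counts in the annotated Macrophages and at the dissociation temperatures, so its levels by cell type and by temperature are given as a description with no test. Tumours grown for 10 days under the skin of Balb/c mice were cut up, and a pool of 6 pieces from different mice was dissociated for 1 h with a protease of Bacillus licheniformis under each of 4 conditions: 37C with actinomycin D, 37C with no inhibitor, 4C with actinomycin D and 4C with no inhibitor. Actinomycin D blocks transcription and was used at 2 nM. The 37C dissociator had heaters and the 4C dissociator was another model, which ties the instrument to the temperature. All 4 suspensions then went through red cell lysis, debris removal and dead cell removal, and 2 aliquots of each (A and B) became droplet 3′ libraries. With 1 suspension per condition, every p-value below for a difference between conditions measures only the spread between aliquots of a suspension. The p-values between Macrophages with and without Arg1 measure how the difference within a library varies over 4 libraries. These come from 2 suspensions, with no replicate suspension of a condition.

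Arginase 1 splits arginine into ornithine and urea. In the liver this is a step of the urea cycle; in mouse macrophages the enzyme is a familiar marker of the alternatively activated state, where it competes with nitric oxide synthase for arginine and feeds ornithine to the making of polyamines and proline. Arginine use by myeloid cells in tumours is also known to hold back T cells.

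On GRCm38 the gene lies on the minus strand at chr10:24915221-24927484 with 8 exons, and in the GENCODE annotation no other gene overlaps it. Its transcript Arg1-201 is 1477 bases long and has a coding part of 969 bases without the stop codon. The nearest relative is Arg2, the mitochondrial arginase, on the plus strand at chr12:79130777-79156301. To show how far reads of the paralogs can be told apart, the coding sequences were aligned: they were identical at 622 of 958 aligned bases (64.9%), and the longest run the transcripts share is 12 bases, in exon 5 of each. The stretch of 36 bases around that run is printed for both, with the shared run in capitals, at chr10:24916789-24916824 for Arg1 and chr12:79150777-79150812 for Arg2.
Arg1: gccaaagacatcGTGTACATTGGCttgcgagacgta
Arg2: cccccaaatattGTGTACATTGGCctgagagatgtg
Arg2 itself was rare, with 25 unique molecular identifiers (UMIs, each standing for 1 captured transcript) in the annotated cells against 902 UMIs of Arg1.

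The libraries held 433245 to 801510 UMIs at 37C and 55698 to 186002 UMIs at 4C. The authors annotated 654 cells: 433 at 37C (99 to 115 per library) and 221 at 4C (34 to 74 per library). A list of 12 macrophage markers (Csf1r, Cd68, Adgre1, C1qa, C1qb, C1qc, Lyz2, Apoe, Mrc1, Fcgr3, Cd14 and Ctss) summed to 31138 counts per 1000000 UMIs (CPM) in the Macrophages at 37C and 17779 CPM at 4C, against 48.6 to 865 CPM in the tumour, T and NK cells. The label therefore held for the class as a whole, with an exception for 7 cells given further on. Of the barcodes, 318 were listed in more than 1 library, but these took in only 12 annotated cells and 1 of the 66 Macrophages with Arg1. In the authors' log-scaled table Arg1 was above 0 in 98 cells, the same 98 as in the raw counts.

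Arg1 was carried by the Macrophages. They held 864 of the 902 Arg1 UMIs in annotated cells (95.8%), while making up 16.7% of the cells and 16.4% of all UMIs. An Arg1 UMI was found in 66 of 109 Macrophages (60.6%, exact binomial 95% interval 50.7 to 69.8%). It was found in 22 of 325 Tumour cells (6.77%), 6 of 154 T cells (3.90%) and 4 of 66 NK cells (6.06%).

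At 37C, where most of the counts lay, the level was 6174 CPM in Macrophages (exact Poisson interval 5765 to 6604), 128 CPM in NK cells (34.9 to 328), 61.3 CPM in T cells (19.9 to 143) and 44.8 CPM in Tumour cells (27.8 to 68.5). The interval of the Macrophages lay above the other 3, and the intervals of those 3 overlapped each other. Here 63 of 92 Macrophages held a UMI (68.5%) at a median depth of 1473 UMIs per cell, against 18 of 239 Tumour cells (7.53%) at a median depth of 1557 UMIs. With each cell thinned to 500 UMIs, 43 of 70 Macrophages (61.4%), 2 of 55 T cells (3.64%), 1 of 25 NK cells (4.0%) and 4 of 237 Tumour cells (1.69%) kept an Arg1 UMI, so the Macrophages were also far above the others at equal depth. Intervals here and below cover counting error only.

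At 4C the counts were few. Arg1 was found in 3 of 17 Macrophages (17.6%, 3.80 to 43.4%), with 16 UMIs of which 12 were in 1 cell, a level of 1437 CPM (821 to 2333). T cells had 75.4 CPM from 2 of 82 cells and Tumour cells 43.9 CPM from 4 of 86 cells. No NK cell of 36 held a UMI, which at a median depth of 486.5 UMIs allows a share of cells with a UMI of up to 8.33% and sets no limit on cells that express the gene.

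**Figure D1:**
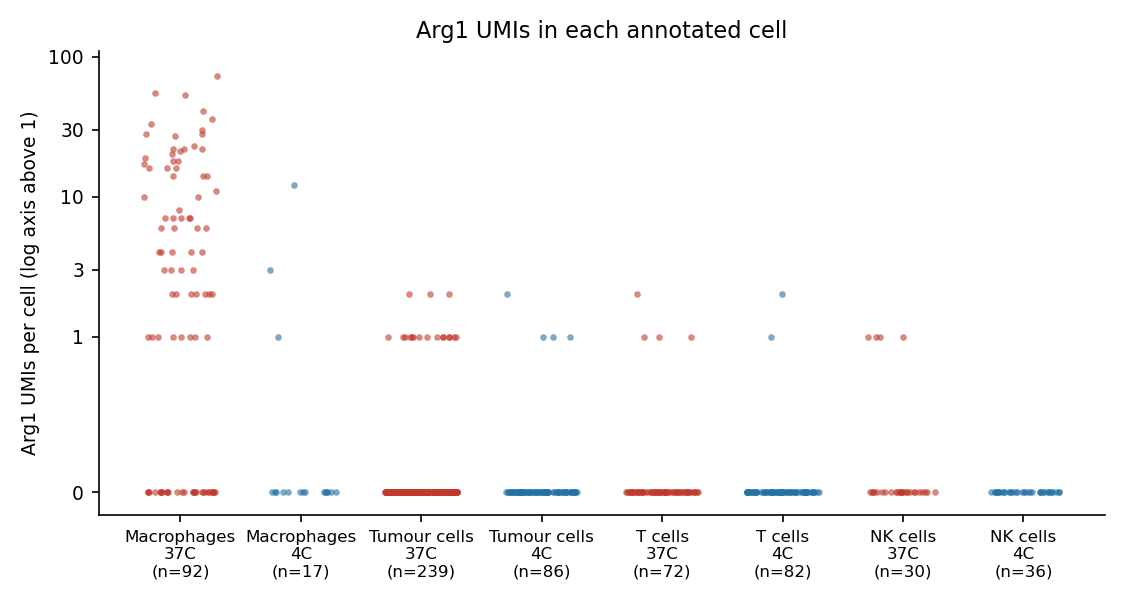
Arg1 UMIs in each of the 654 annotated cells (log axis above 1), by the authors' cell type, with cells from 37C in red and from 4C in blue. Macrophages reached 73 UMIs in a cell, while no cell of another type held more than 2.

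The low Arg1 counts outside the Macrophages were set beside the 12 macrophage markers in the same cells. In Macrophages at 37C there were 19.8 Arg1 UMIs for each 100 macrophage marker UMIs. The ratio was 14.8 in NK cells, 13.3 in Tumour cells and 10.0 in T cells at 37C, none of which had more than 2 Arg1 UMIs in a cell. At 4C it was 23.8 in Tumour cells (5 Arg1 UMIs), 27.3 in T cells (3 Arg1 UMIs) and 8.08 in Macrophages (16 Arg1 UMIs). Macrophage markers were thus found beside Arg1 in cells that should lack them. In the annotated cells other than Macrophages the markers were 2.14 times higher at 37C and Arg1 1.12 times. With so few Arg1 UMIs at 4C, these counts cannot show whether the ratio was fixed. Whether these low counts are free RNA or expression was not tested.

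The same was measured in the barcodes that the authors left unannotated, which held most of the gene: only 35.9% of the 2514 Arg1 UMIs in the deposited tables fell in annotated cells. Barcodes under 100 UMIs at 37C held 969 Arg1 UMIs in 908 of 10671 barcodes, at 18.3 per 100 macrophage marker UMIs. Unannotated barcodes of 200 to 5000 UMIs at 37C held Arg1 in 180 of 547, at 20.7 per 100 marker UMIs. Among these, 19 barcodes had 5 or more Arg1 UMIs (median 10, highest 27), of which 18 also held a macrophage marker; all 19 came from 37C.

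**Figure D2:**
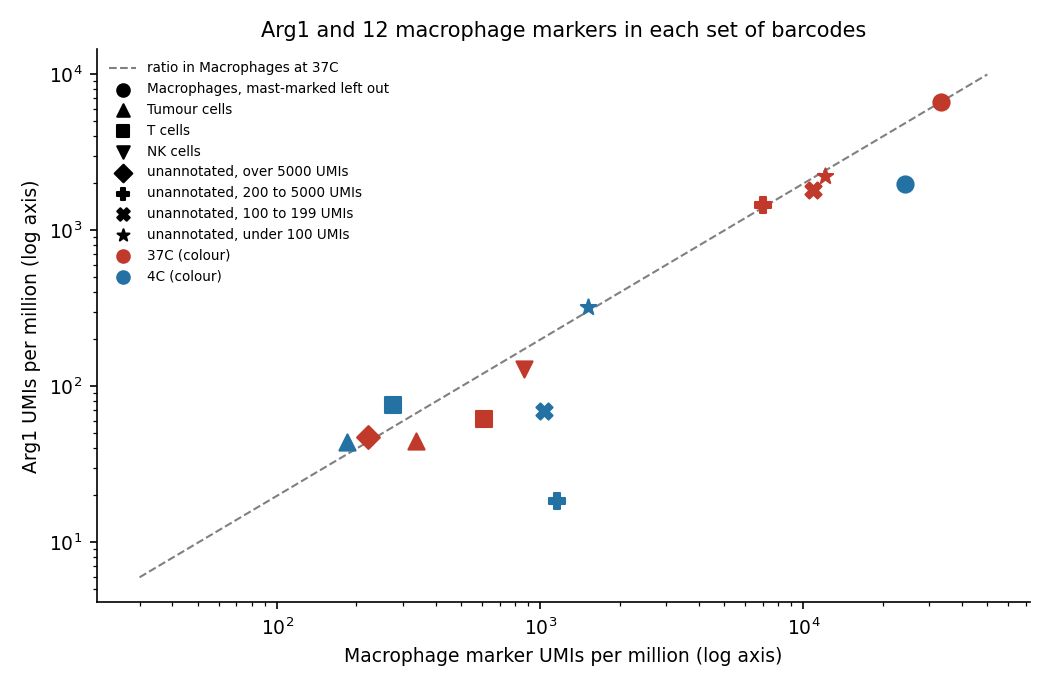
Arg1 against the summed 12 macrophage markers in each set of barcodes, both in CPM on log axes; red is 37C, blue is 4C, and the dashed line is the ratio in Macrophages at 37C. Macrophages at 37C had 19.9 Arg1 UMIs per 100 marker UMIs (mast-marked cells, described further on, left out). The other sets from 37C run from 10.0 in T cells to 21.5 in barcodes over 5000 UMIs, with 18.3 in barcodes under 100 UMIs. In the set over 5000 UMIs, 1 barcode held 31 of the 40 Arg1 UMIs. Macrophages at 4C lie under the line at 8.12, as do barcodes of 200 to 5000 UMIs (1.59) and 100 to under 200 UMIs (6.67). Tumour cells (23.8), T cells (27.3) and barcodes under 100 UMIs (21.0) at 4C lie above it. NK cells and barcodes over 5000 UMIs at 4C had no Arg1 and are not drawn.

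Within the Macrophages Arg1 was spread unevenly. No UMI was found in 43 cells, 1 UMI in 9 cells, 2 to 9 UMIs in 27 cells and 10 or more in 30 cells. The 10 highest cells held 404 of the 864 UMIs (46.8%). In the 37C library with no inhibitor A, a single cell held 73 of 152 Arg1 UMIs (48.0%), and in library B a single cell held 53 (36.8%). Relative to its own depth, the median cell with Arg1 had 56.0 Arg1 UMIs per 10000, and the highest cell had 270.4. Cells with Arg1 were deeper, with a median of 1491 UMIs, against 731 UMIs in cells without, and a count of 0 in a shallow cell does not show that the transcript was absent.

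Of the 43 Macrophages without Arg1, 7 carried the markers of another cell. They had 56 to 372 UMIs of 7 mast cell markers (Cpa3, Cma1, Mcpt4, Tpsb2, Kit, Fcer1a and Ms4a2, which include the granule proteases of mast cells) and only 0 to 3 UMIs of the macrophage markers, at 1133 to 3197 UMIs per cell. The other 102 Macrophages held at most 1 mast cell marker UMI. These mast-marked cells, 5 from 37C and 2 from 4C, were singled out after their values were seen. Left out, the remaining 66 cells with Arg1 had 35557 CPM of macrophage markers, and the remaining 36 cells without Arg1 had 25365 CPM. Summed markers of other myeloid cells moved the opposite way. A set of 6 monocyte markers (Ly6c2, Ccr2, Plac8, Vcan, Thbs1 and F10) summed to 3382 CPM in the cells with Arg1 and 9290 CPM in those without. It outnumbered the macrophage markers in 1 of 66 and 7 of 36 cells. These sets mix temperatures, with 3 of the 66 and 12 of the 36 cells from 4C. At 37C alone the monocyte sums were 3362 and 8264 CPM, and they outnumbered the macrophage markers in 0 of 63 and 3 of 24 cells. Neutrophil markers summed to 1357 CPM with Arg1 and 2618 CPM without. Of these, Mmp9 went the other way at 37C, at 1158 CPM with Arg1 and 240 CPM without.

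**Figure D3:**
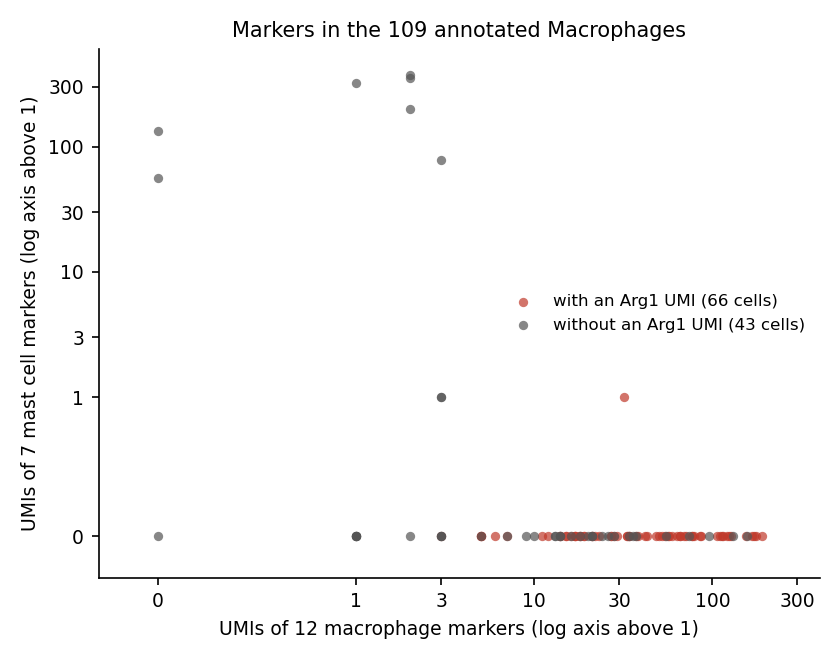
Each point is 1 of the 109 annotated Macrophages, placed by its UMIs of 12 macrophage markers and of 7 mast cell markers (log axes above 1). The 7 cells with 56 or more mast cell marker UMIs are all without Arg1, and the 66 cells with Arg1 (red) lie along the macrophage marker axis.

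Across dissociation conditions Arg1 was high in each library from 37C and low in each from 4C. In all annotated cells it was 1681 and 1216 CPM at 37C with actinomycin D, 998 and 887 CPM at 37C with no inhibitor, 0 and 0 CPM at 4C with actinomycin D, and 303.5 and 122.8 CPM at 4C with no inhibitor (libraries A and B). The temperatures did not overlap, and no Arg1 UMI was found in the annotated cells of either 4C library with actinomycin D.

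Pooled, the level was 1222 CPM at 37C and 129 CPM at 4C, a ratio of 9.44. In such sums fewer macrophages and less Arg1 per macrophage cannot be told apart, and the share of Macrophages moved with temperature: per library they were 14.8 to 30.8% of the annotated cells at 37C and 2.94 to 13.6% at 4C. The 12 macrophage markers had 6279 CPM at 37C and 1246 CPM at 4C, a ratio of 5.04. The part of cell recovery in the Arg1 difference was not tested.

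Within the Macrophages themselves, Arg1 was 5925 and 6585 CPM at 37C with actinomycin D and 5637 and 6831 CPM at 37C with no inhibitor. It was 0 and 0 CPM at 4C with actinomycin D, from 1 and 5 cells, and 2728 and 0 CPM at 4C with no inhibitor, from 8 and 3 cells. The 4 libraries at 37C therefore lay close together and above all 4 at 4C, of which only 1 held any Arg1. That library, 4C with no inhibitor A, depends on its 2 mast-marked cells: without them it stood at 5587 CPM (3193 to 9072), from 3 of 6 cells and with 12 of its 16 UMIs in 1 cell, and its interval overlapped the 37C libraries, at 6362 to 7228 CPM in that setting. The pooled ratio was 4.30 (6174 and 1437 CPM) and was 3.38 with the mast-marked cells left out (6645 and 1967 CPM). Against their own macrophage markers, Macrophages had 19.8 Arg1 UMIs per 100 marker UMIs at 37C and 8.08 at 4C. In the annotated cells of other types the level was 51.6 CPM at 37C and 45.9 CPM at 4C, a ratio of 1.12.

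The same direction was seen outside the annotated cells. Over all listed barcodes Arg1 had 1117.9 and 1183.6 CPM at 37C with actinomycin D, 994.8 and 718.6 CPM at 37C with no inhibitor, 89.8 and 86.2 CPM at 4C with actinomycin D, and 254.7 and 225.8 CPM at 4C with no inhibitor. The ratio of 37C to 4C was 5.42 for Arg1 and 4.06 for the macrophage markers in these barcodes. In barcodes under 100 UMIs Arg1 was 6.87 times higher at 37C and the macrophage markers 7.91 times higher, so there Arg1 did not move beyond the markers.

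**Figure D4:**
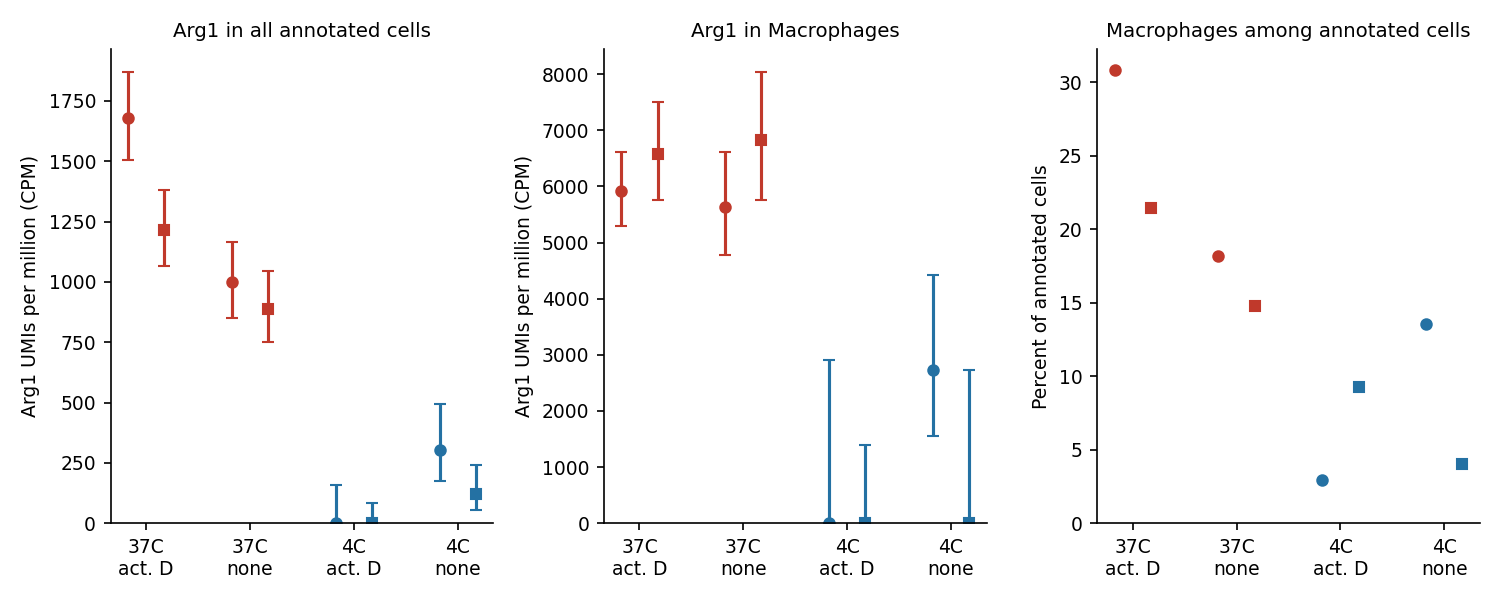
Arg1 CPM in all annotated cells (left) and in Macrophages (middle), and the percent of annotated cells that were Macrophages (right), for each library (circle A, square B) with exact Poisson 95% intervals in the first and second panels. Macrophages at 37C lie between 5637 and 6831 CPM in all 4 libraries, with or without actinomycin D, and the 4C intervals are wide because 1 to 8 Macrophages were annotated per library.

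The inhibitor asks how much of a transcript level depends on transcription during dissociation. At 37C Arg1 in all annotated cells averaged 1448 ± 328 CPM with actinomycin D and 943 ± 78.4 CPM without (SD, n = 2 libraries each); the groups did not overlap. The log2 fold change was 0.65 ± 0.31 (SE; 95% interval 0.01 to 1.29), with an unadjusted p of 0.0478 and an adjusted p of 0.581 in edgeR's quasi-likelihood test over 3391 genes, so it did not pass. In that contrast 41 genes passed (1.21%), 5 higher (0.147%) and 36 lower (1.06%). The share of Macrophages moved the same way, at 30.8 and 21.4% of annotated cells with actinomycin D and 18.2 and 14.8% without.

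Inside the Macrophages at 37C no inhibitor difference was seen. Arg1 averaged 6255 ± 467 CPM with actinomycin D and 6234 ± 845 CPM without, and the libraries overlapped. The fitted fold was 0.932 with a 95% interval of 0.598 to 1.45 (edgeR adjusted p 0.909, 582 genes tested), so a change of more than about that size in either direction is outside the interval for these aliquots. No gene of the 582 passed in this contrast (0%); 57 had an unadjusted p under 0.05, and DESeq2 also called 0. An Arg1 UMI was found in 72.9 ± 8.84% of Macrophages per library with actinomycin D and 62.9 ± 2.54% without (SD, n = 2 each). Pooled over aliquots, the shares were 71.9% (58.5 to 83.0%) and 62.9% (44.9 to 78.5%), and their intervals overlapped. Relative to the macrophage markers, with mast-marked cells left out, Arg1 stood at 15.98 and 21.6 per 100 marker UMIs with actinomycin D and 20.7 and 32.2 without, which overlapped too.

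At 4C annotated cells held 0 Arg1 UMIs of 67551 with actinomycin D and 24 of 117874 with no inhibitor. Of the 24, 16 were in Macrophages of no inhibitor A, and the 8 of no inhibitor B were in Tumour cells and T cells. Setting the group at 0 to a floor of 3 counts over the group (44.4 CPM), Arg1 was at least 4.58-fold lower with actinomycin D. That bound rests on library A and on 1 cell with 12 of the 24 UMIs: it was 6.83-fold against no inhibitor A alone, 2.76-fold against B alone and 2.31-fold without that cell, alternatives chosen after seeing the data. The difference did not pass in edgeR (adjusted p 0.175), where no gene of 3391 passed (0%), 172 had an unadjusted p under 0.05 and DESeq2 called 0. It did pass with no filter on low counts and with a replicate block, as given in the last section. All listed barcodes at 4C gave 13 Arg1 UMIs of 148482 with actinomycin D (87.6 CPM) and 75 of 315582 with no inhibitor (237.7 CPM), a ratio of 0.368 with a counting interval of 0.188 to 0.669, a smaller difference than that bound. Only 6 Macrophages were annotated at 4C with actinomycin D and 11 with no inhibitor.

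Genes that went with Arg1 were sought by summing, in each 37C library, the 63 Macrophages with an Arg1 UMI and the 29 without, and testing the sums with library as a block. Among the genes higher in cells with Arg1 were the chemokine genes Ccl24, Pf4 and Ccl8, the complement genes C1qb and C1qc, and the lysosomal protease genes Ctsb and Lgmn. Because 5 of the 29 cells without Arg1 were mast-marked, the test was run with and without them. Of 288 genes, 36 passed (12.5%), 23 higher (7.99%) and 13 lower (4.51%); with the mast-marked cells left out, 15 of 259 passed (5.79%), 14 higher (5.41%) and 1 lower (0.386%), and 13 genes were called in both. With the 2 aliquots of each suspension summed, 0 of 428 genes passed in edgeR, while 93 had an unadjusted p under 0.05. DESeq2 was not run on these sums. With so few sums the test has little power, so its 0 cannot decide whether the genes hold across suspensions. The split was made on a UMI of Arg1 itself and followed depth, and what part depth, or the monocyte and neutrophil markers given above, had in these differences was not tested.

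The values that follow leave out the mast-marked cells and give the libraries in the order actinomycin D A and B, no inhibitor A and B. Ccl24, a chemokine for eosinophils and a marker of alternative activation, had 1842, 2371, 2997 and 6449 CPM in Macrophages with Arg1, against 0, 0, 402 and 236 CPM in those without. Its UMIs were found in 29 of 63 cells with Arg1 and 3 of 24 cells without. The groups did not overlap, and the log2 fold change was 4.66 ± 0.61 (edgeR adjusted p 0.00509).

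Pf4, or platelet factor 4, a chemokine that tissue macrophages also express, had 6098, 3093, 5229 and 2385 CPM with Arg1, against 0, 0, 1408 and 0 CPM without. It was found in 40 of 63 cells with Arg1 and 1 of 24 without, and differed by 4.31 ± 0.83 (log2, edgeR adjusted p 0.0149). The group without Arg1 was at 0 in all but 1 library. Ccl8, a chemokine for monocytes, had 2265, 1890, 764 and 1590 CPM with Arg1, against 192, 0, 201 and 0 CPM without; the last rest on 3 UMIs, and the ratio was 17.6 with a counting interval of 5.93 to 86.3 (edgeR adjusted p 0.0133).

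C1qb, a chain of the complement recognition molecule C1q, had 2041, 3024, 1293 and 1060 CPM with Arg1, against 192, 0, 402 and 0 CPM without (log2 3.64 ± 0.67, edgeR adjusted p 0.0142). C1qc differed by 3.31 ± 0.69 (edgeR adjusted p 0.0208), and the third chain, C1qa, did not pass in this setting (3.03 ± 0.78, edgeR adjusted p 0.0502). The C1qb values did not overlap. C1qb and C1qc belong to the macrophage marker list, and its other tested members did not pass in edgeR. Beside C1qa these were Apoe (2.33), Mrc1 (1.86), Fcgr3 (1.35), Cd68 (0.86), Lyz2 (0.55), Ctss (0.23), Csf1r (0.21) and Cd14 (-0.38, log2). Ctsb, the lysosomal protease cathepsin B, had 5725, 5258, 4466 and 6273 CPM with Arg1, against 959, 755, 3018 and 827 CPM without (log2 2.19 ± 0.46, edgeR adjusted p 0.0208). It was found in most cells of both sets, 57 of 63 with Arg1 and 16 of 24 without.

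The other genes higher in cells with Arg1 were Lgmn and Ctsc, further lysosomal proteases, Ccl6, a chemokine, Fcgr2b, the inhibitory receptor for antibody, and Dab2, an adaptor of endocytosis, with log2 fold changes of 1.72 to 2.59. Ccl2 and Ccl7, chemokines that draw monocytes, differed by 3.06 ± 0.54 and 3.88 ± 0.84 (edgeR adjusted p 0.0133 and 0.0227) and were called only with the mast-marked cells left out. Cxcl3, a chemokine for neutrophils, had 165 UMIs in 13 cells with Arg1 and 0 in cells without, at least 16.4-fold higher, but 95 of the UMIs were in 1 cell; it passed in edgeR (adjusted p 0.00953) and not in DESeq2 over all Macrophages (adjusted p 0.303).

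One gene was lower in cells with Arg1 in this setting. Cytip, which binds regulators of cell adhesion in leukocytes, had 49.8, 68.7, 0 and 88.3 CPM with Arg1, against 1150, 1698, 604 and 1891 CPM without. It was found in 5 of 63 cells with Arg1 and 12 of 24 without, and differed by -4.50 ± 0.81 (log2, edgeR adjusted p 0.0133). The genes with the largest fall over all 92 Macrophages were all mast cell genes, Tpsb2, Cma1, Tpsab1, Cpa3 and Fcer1a; of the 378 Tpsb2 UMIs in cells without Arg1, the mast-marked cells held 377.

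Of the 13 genes called in both settings, 6 (Ccl24, Ccl8, C1qb, C1qc, Ctsb and Lgmn) were also called with any single library left out, over all Macrophages. The other 7 lost the call at least once. Pf4 lost it without actinomycin D library B (edgeR adjusted p 0.0504), as did Ccl6 (0.0640); Cytip lost it without actinomycin D library A (0.0610), as did Fcgr2b (0.0962); and Cxcl3 lost it without no inhibitor library B (0.0528). Ctsc and Dab2 each lost it without actinomycin D library A, actinomycin D library B or no inhibitor library B, with an edgeR adjusted p up to 0.0852 for Ctsc and 0.0645 for Dab2. With aliquots summed, the 6 had an edgeR adjusted p of 0.0700 to 0.0917.

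**Figure D5:**
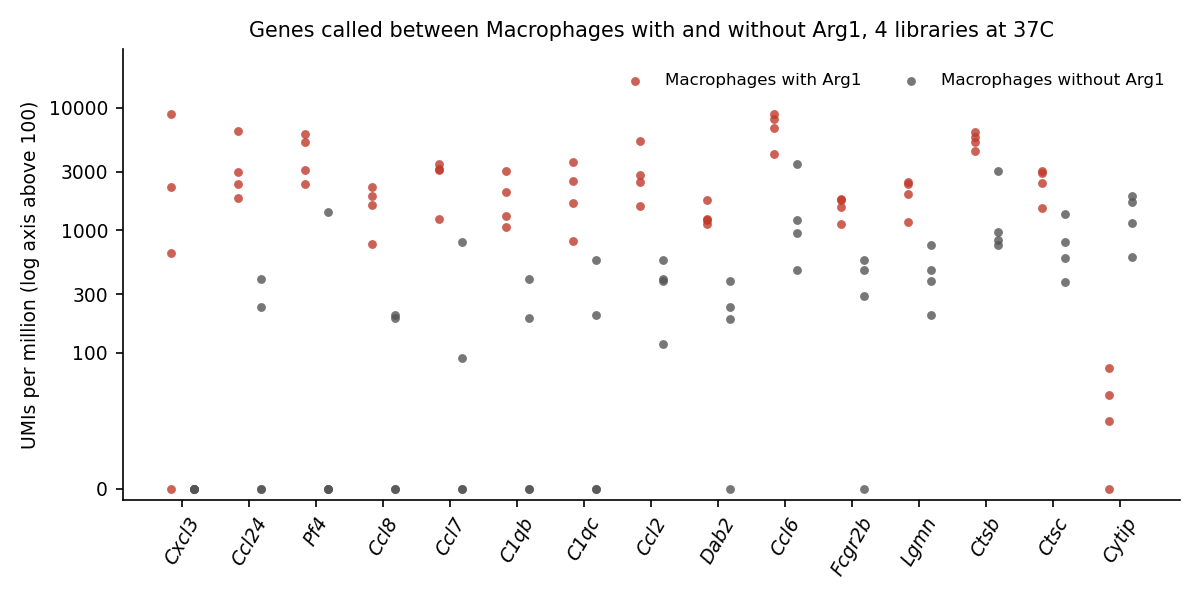
CPM (log axis above 100) of the 15 genes called between Macrophages with Arg1 (red, left of each pair) and without (grey), each point 1 of 4 libraries at 37C, with mast-marked cells left out. Ccl24 lies at 1842 to 6449 CPM with Arg1 and at 0 to 402 CPM without, and Cytip runs the other way.

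The pattern of Arg1 over single cells was also compared with each of 876 genes found in at least 20% of the 109 Macrophages, on the authors' log scale. The highest Pearson correlations across cells were those of Pf4 (0.59), Apoe (0.53), Fcgr2b (0.52), Aif1 (0.51), C3ar1 (0.51), Ctsl (0.50), Dab2 (0.50), Mif (0.48), Mrc1 (0.48) and Ctsb (0.48). The lowest were Cytip (-0.46), Napsa (-0.31), mt-Nd1 (-0.29), Taldo1 (-0.26) and Esyt1 (-0.25). In all, 55 genes were above 0.3 and 2 were below -0.3. Within the 37C libraries taken singly, the correlation with Pf4 was 0.48 to 0.73 and that with Cytip was -0.61 to -0.42. These cells share libraries, a depth that differs between cells and, for 7 of them, mast cell transcripts; without those, 7 of the 10 highest genes were again among the 10 highest. Over the 16 sums of 4 cell types by 4 conditions the genes most like Arg1 were Tpsab1 (0.94), C1qb (0.91), Pf4 (0.89), C1qa (0.88), C1qc (0.87), Tpsb2 (0.87), Efhd2 (0.85), Cpa3 (0.82), Basp1 (0.81) and Cdkn1a (0.79). Tpsab1, Tpsb2 and Cpa3 are mast cell genes, and no mast-marked cell held an Arg1 UMI: such sums follow the annotated class, not the single cell.

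Of 35 listed genes of arginine and polyamine metabolism other than Arg1, 14 had enough counts to be tested in all annotated cells. Between temperatures 1 passed, Gatm, which takes arginine into creatine synthesis; over all genes 135 of 3391 passed (3.98%), 93 of them higher at 37C (2.74%) and 42 lower (1.24%). A share of 1 in 14 is no result about the list. Of the 14, 13 had a log2 fold change above 0, and the median was 0.59 over the 14 and 0.04 over all genes tested. Gatm had 160, 123, 88.4 and 66.8 CPM at 37C, against 43.1, 0, 19.0 and 0 CPM at 4C, where it had only 2 UMIs; the ratio of pooled levels was 10.5 with a counting interval of 2.80 to 87.8 (edgeR adjusted p 0.0169). The temperatures did not overlap. The call was lost without the 37C library with no inhibitor A (edgeR adjusted p 0.0675), without the 4C library with actinomycin D B (0.0890) and in DESeq2. None of the 14 passed for actinomycin D at 37C or at 4C.

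By cell type, the counts are read against the 16.4% of all annotated UMIs that lay in Macrophages. Gatm had 76 of 83 UMIs in Macrophages, and at 37C it was found in 27 of 63 Macrophages with Arg1 and 4 of 29 without (mast-marked cells included). Arg2 had 24 of 25 UMIs in Macrophages, in 14 of 92 cells at 37C, of which 9 also held Arg1. Slc7a2, an arginine transporter of macrophages, had 10 of 11 UMIs there, all in 7 cells with Arg1. Nos2, the inducible nitric oxide synthase that shares the substrate, had 7 of 17 UMIs in Macrophages, in 3 cells, all with Arg1. The polyamine genes were divided. Odc1, ornithine decarboxylase, had 1 of 68 UMIs in Macrophages and Srm, spermidine synthase, had 8 of 137, both a smaller share than that of all UMIs. Eif5a, the protein that carries the spermidine-derived residue hypusine, had 100 of 732 and Oaz1, which inhibits ornithine decarboxylase, 70 of 476, both near it. Smox, spermine oxidase, had 32 of 91 and Sat1, spermidine acetyltransferase, 31 of 102, both a larger share.

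Of 22 listed genes of alternative activation 8 were tested between temperatures, and 4 were higher at 37C (against 2.74% of all genes tested) with none lower; the median was 1.36 (log2), against 0.04 over all genes tested. Ccl24 rose by a log2 of 4.58 ± 0.51 (edgeR adjusted p 1.78e-05), with 279 UMIs at 37C and 3 at 4C and a ratio of 24.0 (8.13 to 117.1). Mrc1, the mannose receptor, rose by 3.42 ± 0.57 (edgeR adjusted p 0.000927) and Tgm2, transglutaminase 2, by 1.63 ± 0.32 (edgeR adjusted p 0.00538). Clec7a, a receptor for fungal glucans, had 92 UMIs at 37C and 1 at 4C, a ratio of 23.7 (4.16 to 947.8; edgeR adjusted p 0.0103). Ccl24, Mrc1 and Clec7a had, like Arg1, most of their UMIs in Macrophages, whose share was higher at 37C, whereas Tgm2 had 188 of 417 there. Mrc1 also stands in the macrophage marker list. Between Macrophages with and without Arg1, 2 of 4 tested members passed (against 12.5% of all genes tested), Ccl24 and Mrc1 (log2 2.07, edgeR adjusted p 0.0242); Mrc1 did not pass with mast-marked cells left out (adjusted p 0.110). Members with too few counts to be tested were compared in UMIs of the 63 Macrophages with Arg1 and the 29 without. The former held more UMIs in total: Eif5a, with 69 and 25 UMIs, stood at 707 and 643 CPM. Without the mast-marked cells Eif5a stood at 707 and 823 CPM. Higher against the totals with mast-marked cells included were Trem2, a lipid receptor (52 and 1), Il4ra (44 and 4) and, less clearly, F13a1 (41 and 12). So were Chil3 (19 and 2), Cd163 (14 and 1), Stat6 (10 and 2), Pdcd1lg2 (9 and 0) and Klf4 (7 and 1). Lower were Clec10a, a lectin (16 and 10), Mgl2, a related lectin (22 and 32), the chemokine Ccl17 (0 and 8) and Egr2 (3 and 3).

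Of 15 genes of classical activation 8 were tested between temperatures. At 37C 2 were higher (against 2.74% of all genes tested) and 1 was lower (against 1.24%). The median was 0.58 (log2), against 0.04 over all genes tested. Il1b, the cytokine interleukin 1 beta, rose at 37C by 2.76 ± 0.63 (log2, edgeR adjusted p 0.0126) and Ptgs2, cyclooxygenase 2, by 1.37 ± 0.38 (adjusted p 0.0464), while Ccl5, a chemokine for T cells, was lower at 37C, with a log2 fold change of -1.23 (adjusted p 0.0176). Il1b had 212 of 222 UMIs in Macrophages, whose share was higher at 37C, whereas Ptgs2 had 18 of 240 and Ccl5 5 of 605 there. T cells were 72 of 433 annotated cells at 37C and 82 of 221 at 4C. The part of cell composition in these differences was not tested. Ptgs2 lost its call in DESeq2 and without either 37C library B or either 4C library with actinomycin D (edgeR adjusted p up to 0.195), and Ccl5 lost its own without the 4C library with actinomycin D B, where its log2 fold change was -0.42 (adjusted p 0.567). None of the list passed between Macrophages with and without Arg1; Il1b, the member tested there, differed by 0.80 (edgeR adjusted p 0.343).

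Hypoxia and glycolysis genes, which tumour macrophages can raise together with Arg1, gave 1 call of 16 between temperatures (against 3.98% of all genes tested), Tpi1, triose phosphate isomerase (log2 0.91 ± 0.26, edgeR adjusted p 0.0481), which lost the call in DESeq2 and without either 37C library A, the 37C library with no inhibitor B or the 4C library with actinomycin D A (edgeR adjusted p up to 0.134). Between Macrophages with and without Arg1, 2 of 7 passed (against 12.5% of all genes tested), the cytokine Mif (1.91, edgeR adjusted p 0.0233) and the pyruvate kinase Pkm (1.35, adjusted p 0.0235), and all 7 had values above 0 with a median log2 of 1.12, against -0.06 over the 288 genes. With mast-marked cells left out none of 6 passed (Mif edgeR adjusted p 0.0502), and both calls were also lost without actinomycin D library A, actinomycin D library B or no inhibitor library B. Of 13 transcription factors known to act on Arg1, among them Cebpb, Stat6, Stat3, Spi1 and Hif1a, 10 were tested between temperatures and for the inhibitor. None passed in either, where 3.98% of all genes passed between temperatures and 1.21% and 0% with the inhibitor at 37C and 4C. Of the 2 tested between Macrophages with and without Arg1, none passed, against 12.5% of all genes tested. So few members give no result about the list.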

How the data were processed

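Per the submitters' processing notes, reads were handled with UMI-tools, STAR 2.7.1a, featureCounts 1.6.0, SAMtools and Seurat on GRCm38, with no settings stated there. The authors deposited raw UMI counts per gene and barcode for 8 libraries, with 2990 to 3000 barcodes each, and a table of 654 annotated cells with values on a natural log scale, ln(1 + counts per 10000). Identifiers were given symbols from GENCODE (17520 of 17580). Raw counts were summed per library over annotated cells, over Macrophages, or over Macrophages with and without an Arg1 UMI, and tested with edgeR 4.0.16 (quasi-likelihood, TMM, filterByExpr, Benjamini-Hochberg, threshold 0.05); DESeq2 1.42.0 was an alternative, in R 4.3.3. CPM is counts per 1000000 UMIs of the cells named. Libraries needed 10 Macrophages, and each set of cells 5, to enter a test within Macrophages. Doublets were not called. Replicate letters were taken only as names. The tests were checked on simulated counts. The gene, the lists and the tests were chosen with earlier results of these data known; the mast-marked cells were singled out after seeing their values. Named genes were the 10 highest and 5 lowest called or correlated genes, list members called or, for arginine metabolism, with 50 or more UMIs; others were named for few or related counts. Intervals are exact at 95%.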

Additional observations from a re-analysis of the deposited data

Results flagged for a closer look

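The difference of Arg1 with actinomycin D ran in opposite directions at the 2 temperatures in all annotated cells. At 37C both libraries with actinomycin D (1681 and 1216 CPM) lay above both without (998 and 887 CPM), and at 4C both with actinomycin D (0 and 0 CPM) lay below both without (303.5 and 122.8 CPM). In 4C no inhibitor B the Macrophages held 0 of the 8 Arg1 UMIs, with 5 in Tumour cells and 3 in T cells. The fitted interaction was 8.19 on the log2 scale and did not pass in edgeR (adjusted p 0.0663), where no gene of 3391 passed, 250 had an unadjusted p under 0.05 and DESeq2 called 0. It did pass in some other settings given in the next section. The value of 8.19 is no measure of size, since it depends on the prior count given to the group at 0. The share of Macrophages ran the same way at 37C, and at 4C it was 2.94 and 9.26% with actinomycin D and 13.6 and 4.05% without; its part in the difference was not tested.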

How the results depend on the processing

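Few cells and low depth limit Arg1 at 4C: only 17 Macrophages were annotated there, from libraries of as little as 23212 annotated UMIs. With actinomycin D at 4C the fitted Arg1 value was -7.35 with no filter on low counts (edgeR adjusted p 0.00317) and -7.46 with a replicate block (0.0423), both past the threshold; with a library left out it was -8.08 to -6.88 (adjusted p 0.000125 to 0.710), passing without 37C actinomycin D A, 37C actinomycin D B or 4C no inhibitor B. The interaction was 8.003 with no filter and 8.09 with the block, both past the threshold, 1.91 over all barcodes (adjusted p 0.0203), and 7.55 to 8.75 with a library left out. In Macrophages at 37C the uncalled inhibitor value of -0.10 changed sign to 0.25 with no filter, 0.03 without actinomycin D A and 0.054 without no inhibitor B (range -0.20 to 0.054). In all annotated cells at 37C it was 0.40 to 0.85. The share of Macrophages with Arg1 at 37C was 61.4% with actinomycin D and 57.1% without if 2 UMIs were asked for; without inhibitor it was 53.8% after thinning and 68.8% without mast-marked cells. Leaving out a library gave 66.7 to 79.2% (37C with actinomycin D), 61.1 to 64.7% (37C without), 0% (4C with) and 0 to 37.5% (4C without). Genes called with Arg1 in Macrophages numbered 8 after thinning, 55 with no filter, 0 with aliquots summed, 15 without mast-marked cells and 13 to 31 with a library left out; Mrc1 turned to -0.55 after thinning. Between temperatures, genes called were 60 in DESeq2, 293 with no filter, 31 with libraries thinned, 1290 over all barcodes and 80 to 198 with a library left out. Calls in the arginine list were 0, 2, 0, 5 and 0 to 2 in that order, and in the alternative activation list 1 with libraries thinned, 8 over all barcodes and 3 to 5 with a library left out. For the inhibitor at 37C, genes called were 8 in DESeq2, 75 with no filter, 0 thinned, 256 over all barcodes and 15 to 116 with a library left out; the arginine list had 1 over all barcodes, and the alternative activation list 2 with no filter, 4 over all barcodes, 1 with only 37C libraries and 0 to 4 with a library left out. For the inhibitor at 4C they were 11 with no filter, 5 with the block, 2 over all barcodes, 1 with only 4C libraries and 0 to 12 with a library left out. The replicate block changed no other call of a list or of Arg1. The letters were not shown to pair aliquots: A minus B deviations of the conditions correlated at -0.02 to 0.39 across 1696 genes. The causes of these changes were not tested.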
